A study of Mus musculus with 6 samples.

Results

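Type 1 immunity is described here through 10 genes: the IL-12 subunits Il12a and Il12b, the IL-12 receptor chains Il12rb1 and Il12rb2, the transcription factor Stat4, the cytokine Il18 and its receptor chain Il18r1, and Ifng with its receptor chains Ifngr1 and Ifngr2. The genes were chosen by symbol, and all 10 were found among the 21720 symbols of the expression table. The libraries came from tumours of H22, a mouse hepatocellular carcinoma line labelled wild type, grown under the skin of female BALB/c mice of 6 to 8 weeks, which have an intact immune system. The control group received 0.5% carboxymethyl cellulose sodium and the luteolin group 200 mg/kg luteolin, a plant flavonoid, each by gavage in 0.2 mL every day over 21 days from a tumour volume of about 50 mm3, with 3 libraries per group. Neither the labels nor the paper say that each library is 1 animal, so the p values measure the spread between these libraries. Whole tumour tissue was sequenced, and fewer cells of a type and less RNA per cell cannot be told apart in it.

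IL-12 is made mainly by dendritic cells and macrophages as a heterodimer of the p35 subunit, encoded by Il12a, and the p40 subunit, encoded by Il12b. It binds IL-12Rβ1 and IL-12Rβ2 on T and NK cells and activates STAT4, which together with the transcription factor T-bet drives the transcription of Ifng. IL-18 is stored as a precursor that caspase-1 cleaves, signals through IL-18R1 and its accessory chain, and adds to IFN-γ release by cells that have seen IL-12. IFN-γ acts on nearly all cells through IFN-γR1 and IFN-γR2 and, by way of the kinases JAK1 and JAK2, induces antigen presentation genes, guanylate-binding proteins and chemokines.

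Total counts per library ranged from 61081637 to 80442954, and edgeR tested 14963 genes after its filter on low counts. Levels are given as CPM, counts scaled to a common TMM-normalized library total, and 3 values in a row belong to replicates 1, 2 and 3. SE is the standard error of a log2 fold change. A gene is called higher or lower at the threshold of the study, an unadjusted p under 0.05 with a fold change over 2, and the adjusted p over all genes tested is given beside it. The markers of the labelled tumour type were uneven: Afp lay at 32.7 to 66.7 CPM and Krt18 at 193 to 266 CPM, whereas Hnf4a, which encodes a defining hepatocyte factor, lay at 0 to 0.327 CPM and Alb at 0.868 to 133 CPM. Of the 11 hepatocyte markers, only Afp was lower in each luteolin library (32.7 to 41.8 against 43.4 to 66.7 CPM). Only Gpc3 was higher in each (3.13 to 9.34 against 0.633 to 1.30 CPM), and the others overlapped. Luteolin replicate 2 stood apart by its skin genes. The 12 keratinocyte markers summed to 10500 CPM in this library, 587 CPM in luteolin replicate 1, 163 CPM in luteolin replicate 3 and 191 to 202 CPM in the control libraries, and 7 of the 12 were at 0 in every control library. The calls of the 10 genes and several other results are therefore also given without it. The cell type marker lists are given with all libraries only.

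All 10 genes passed the filter on low counts, 9 of them on the control libraries alone; Il12a passed only through the luteolin libraries. At the threshold of the study 6 of the 10 were higher in the luteolin group (Ifng, Il12a, Il12b, Il18r1, Il12rb2 and Stat4) and 0 were lower, where 11.3% of all genes tested were called higher and 1.52% lower. The cytokine Ifng, both IL-12 subunits, the receptor chains Il12rb2 and Il18r1 and the factor Stat4 rose, while Il12rb1, Il18 and both IFN-γ receptor genes did not pass. The median log2 fold change of the 10 genes was 1.94, against -0.01 for all genes tested. In 7 of the 10 the 3 luteolin libraries all lay above the 3 control libraries, which was the case for 15.9% of all genes tested (below every control library, 12.8%). At an adjusted p under 0.05 only Il18r1 remained, and 0 of the 10 were lower, where 1.34% of all genes were higher and 0.187% lower. The number at that threshold depended on the method. It was 5 with DESeq2 (Il12b, Il12rb2, Il18r1, Stat4 and Ifng, beside 8.67% of all genes) and the same 5 with voom (12.6%). It was 2, Il18r1 and Ifng, with at least 10 counts in every library (2.54% of all genes), with values divided by 4 (2.41%), with offsets for GC content and length (3.79%) and with these offsets and a replicate block (3.97%), and 0 with the block alone (0.227%). In 7 of the 10 genes the highest value was in luteolin replicate 2. Without that library the same 6 genes were called, and 7.52% of all genes were; with DESeq2 as well, 4 of the 10 had an adjusted p under 0.05 (6.19% of all genes). Luteolin replicate 3 was also fitted as the only treated library, assumed to vary like the controls. In that fit 3 of the 10 were called (Ifng, Il18r1 and Il12rb2), where 4.95% of all genes were higher. At an adjusted p under 0.05 the number was 0 (0.0257% of all genes). Luteolin replicate 3 is the treated library without a raised keratinocyte sum, but most of that sum was Dsp (142 CPM, and 172 to 186 CPM in the controls). Of the 7 keratinocyte markers at 0 in every control library, only Lor was at 0 in luteolin replicate 3. The highest of the others there were Krt5 (4.74 CPM), Krt14 (4.33 CPM) and Krt1 (0.861 CPM). The sum thus does not show this library to be free of keratinocyte RNA.

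**Figure D1:**
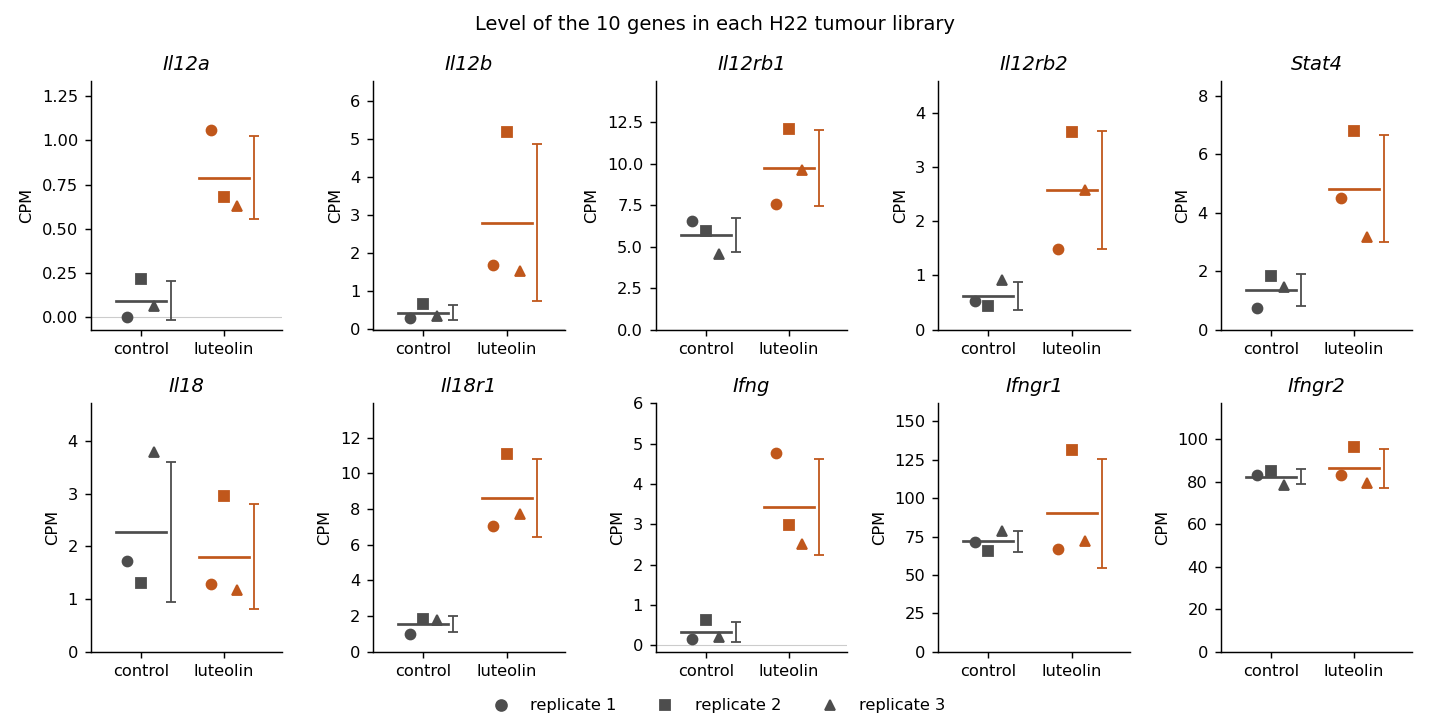
Each panel plots the level of a gene in CPM on a linear axis. Points are libraries, horizontal lines are group means and the bars beside them show 1 SD (n = 3 per group). The luteolin points of Ifng (2.52 to 4.77 CPM) and Il18r1 (7.05 to 11.1 CPM) lie clear of the control points, and those of Il18, Ifngr1 and Ifngr2 overlap with them.

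The cytokine at the end of the axis was examined first. Ifng (chromosome 10, 118441046 to 118445892, GRCm38) is the main activator of macrophages among the products of T and NK cells. It had 0.157, 0.618 and 0.202 CPM in the control libraries, against 4.77, 2.98 and 2.52 CPM in the luteolin libraries. The groups did not overlap, and unlike most of the axis the highest value was in luteolin replicate 1. These levels rest on 64 counts in all control libraries together and on 702 in the luteolin libraries. The mean was 3.42 ± 1.19 CPM against 0.326 ± 0.254 CPM (SD, n = 3 each). This gave a log2 fold change of 3.39 (SE 0.68, unadjusted p = 0.00169 and adjusted p = 0.0665 in edgeR). Leaving out single libraries moved it between 3.03 and 4.23, the highest without control replicate 2. With DESeq2 the adjusted p was below 0.05, as it was when the values were divided by 4. A predicted transcript on the same strand, Gm49751, shares 25.9% of the exon bases of Ifng, and reads from that stretch cannot be assigned to either.

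The study measured Ifng by qRT-PCR as well, and its primer pair shows which part of the transcript those levels read. The pair is printed 5′ to 3′.
Ifng forward: aagacaatcaggccatcagc
Ifng reverse: ctggacctgtgggttgttga
On GENCODE M21 transcripts (GRCm38) the forward primer lies in coding sequence of exon 3 (chromosome 10, 118442680 to 118442699) and the reverse primer in coding sequence of exon 4 (118445155 to 118445174), with an amplicon of 137 bases in the transcript. The last intron lies between them. The forward primer alone also matches Gm49751, and the pair matched no other gene of that annotation.

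The bases upstream of Ifng, Il12rb2 and Il12b are shown because these genes rose and stand for the product, the receptor and the ligand of the axis. Each run is the 250 bases before the RefSeq start (GRCm38.p6), 5′ to 3′ along the gene, with capitals for matches to TTCNNNGAA, a spacing bound by STAT dimers, and to TCACAC or GTGTGA, part of the site bound by T-box factors. Ifng is taken from chr10:118440796-118441045 (plus strand), Il12rb2 from chr6:67376189-67376438 (minus strand) and Il12b from chr11:44399813-44400062 (plus strand).
Ifng: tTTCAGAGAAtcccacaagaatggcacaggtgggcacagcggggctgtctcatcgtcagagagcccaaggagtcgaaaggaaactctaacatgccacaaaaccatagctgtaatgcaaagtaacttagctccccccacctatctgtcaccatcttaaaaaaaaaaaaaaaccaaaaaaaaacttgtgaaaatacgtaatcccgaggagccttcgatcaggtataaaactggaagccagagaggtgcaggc
Il12rb2: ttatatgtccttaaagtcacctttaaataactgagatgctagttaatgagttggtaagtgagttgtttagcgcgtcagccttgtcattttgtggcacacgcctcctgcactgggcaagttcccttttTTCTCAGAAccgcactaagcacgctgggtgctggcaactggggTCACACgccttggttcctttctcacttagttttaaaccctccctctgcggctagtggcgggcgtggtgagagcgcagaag
Il12b: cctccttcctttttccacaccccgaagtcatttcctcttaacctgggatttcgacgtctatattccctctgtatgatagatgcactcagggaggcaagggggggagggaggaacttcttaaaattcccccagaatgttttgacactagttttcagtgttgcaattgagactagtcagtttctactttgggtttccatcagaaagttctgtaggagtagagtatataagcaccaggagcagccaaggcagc
TTCNNNGAA was found at -249 to -241 before Ifng and at -123 to -115 before Il12rb2, where -1 is the last base before the start, and TCACAC at -80 to -75 before Il12rb2. Il12b had neither. RefSeq promoters were found for 9 of the 10 genes, Il12rb1 being the exception. These 9 genes had 13 promoter windows, as some have several starts. TTCNNNGAA was in 3 of the 13 windows (Ifng, Il12rb2 and 1 of the 3 of Il18r1) and TCACAC, on either strand, in 2 of the 13 (Il12rb2 and 1 of Il12a), beside 7.0% and 12.3% of the 32841 windows of the same length in the genome. Such matches describe the letters only.

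The ligand subunits were both low. Il12b (chromosome 11, 44400063 to 44414033), the p40 chain that IL-12 shares with IL-23, had 0.286, 0.649 and 0.341 CPM in the control libraries, against 1.68, 5.18 and 1.53 CPM in the luteolin libraries. Every luteolin library lay above every control library. Il12b had a log2 fold change of 2.72 (SE 0.69, unadjusted p = 0.0057 and adjusted p = 0.103 in edgeR). It was 1.93 without luteolin replicate 2 and 1.86 (unadjusted p = 0.0593 in edgeR) with luteolin replicate 3 alone. Il12a (chromosome 3, 68690644 to 68698547), the p35 chain found only in IL-12 and IL-35, had 0, 14 and 4 counts in the control libraries, against 65, 57 and 40 counts in the luteolin libraries. The count of 0 allows up to 3 counts, or 12 where a read pair counts as 4, so the control level is close to the limit of detection. Its log2 fold change was 3.07 (SE 1.18, unadjusted p = 0.0351 and adjusted p = 0.208 in edgeR). The call was lost without control replicate 3, without luteolin replicate 1 and without luteolin replicate 3, where the log2 fold changes were 2.85, 2.80 and 3.17. It was 2.46 without control replicate 1 and 4.6 without control replicate 2, so single control libraries set the size of this value.

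Levels of different genes were compared per kilobase of exon sequence. In the luteolin group Il12b reached 1.42 ± 1.05 CPM per kb and Il12a 0.464 ± 0.139 CPM per kb (SD, n = 3), and in the control group 0.216 ± 0.0995 and 0.0545 ± 0.0654 CPM per kb. The p40 gene was thus the more abundant subunit in each of the 6 libraries. Il23a, which encodes the p19 chain that pairs with p40 to form IL-23, was far higher at 10.1 ± 2.05 CPM per kb in the control group and 5.65 ± 1.73 CPM per kb in the luteolin group, and it ran the other way. In CPM it had 17.5, 24.5 and 26.2 in the control libraries, against 13.5, 8.47 and 16.1 in the luteolin libraries, with every luteolin library below every control library, as for 12.8% of all genes tested. Its log2 fold change was -0.84 (SE 0.30, unadjusted p = 0.0272 and adjusted p = 0.187 in edgeR), short of the fold change threshold. Without control replicate 1 (-1.01) and without luteolin replicate 3 (-1.08) it passed that threshold, as it did with the GC content and length offsets (-1.08) and with these offsets and the block (-1.17). The number of Il12b counts per count of Il23a was 0.013 to 0.0265 in the control libraries and 0.0952 to 0.612 in the luteolin libraries (exact two-sided permutation test, p = 0.1, the smallest that 3 against 3 allow). With Il12b above and Il23a below every control library, this ratio had to separate the groups, so its p value adds nothing.

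The receptor side of IL-12 was led by Il12rb2 (chromosome 6, 67291318 to 67376188), the chain that type 1 T cells and NK cells induce and that recruits STAT4. Il12rb2 had 0.529, 0.432 and 0.915 CPM in the control libraries, against 1.49, 3.65 and 2.58 CPM in the luteolin libraries. Here again the groups did not overlap. The log2 fold change was 2.04 (SE 0.55, unadjusted p = 0.00788 and adjusted p = 0.116 in edgeR), and 1.72 without luteolin replicate 2. Exons of Serbp1 on the opposite strand cover 1519 of the 3794 exon bases of Il12rb2, and Serbp1 had 28063 to 35650 counts per library. Whether the counting used strand is not given in the sources used here, and the part of Serbp1 reads in the Il12rb2 values was not tested; Serbp1 itself had 30725 to 35650 counts in the control and 28063 to 32900 in the luteolin libraries. Il12rb1 (chromosome 8, 70808449 to 70821424), the chain shared with the IL-23 receptor, was the more abundant at 5.68 ± 1.03 CPM in the control group and 9.76 ± 2.31 CPM in the luteolin group (SD, n = 3 each). All luteolin libraries lay above all control libraries, from 7.54 CPM against 6.54 CPM at the closest, yet the log2 fold change of 0.78 (SE 0.31, unadjusted p = 0.0379 and adjusted p = 0.216 in edgeR) was short of the threshold.

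Stat4 (chromosome 1, 51987148 to 52107189), the transcription factor downstream of both chains, had 0.758, 1.84 and 1.46 CPM in the control libraries, against 4.52, 6.79 and 3.16 CPM in the luteolin libraries. Its log2 fold change was 1.84 (SE 0.50, unadjusted p = 0.0081 and adjusted p = 0.117 in edgeR). It was 1.53 without luteolin replicate 2, and 1.24 and not called with luteolin replicate 3 alone. A transcript on the same strand, Gm28177, shares 26.7% of the exon bases of Stat4.

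The IL-18 branch split between receptor and ligand. Il18r1 (chromosome 1, 40465552 to 40500854), the chain that binds IL-18, had 1.02, 1.81 and 1.78 CPM in the control libraries, against 7.05, 11.1 and 7.70 CPM in the luteolin libraries. The lowest luteolin library was well above the highest control library. The log2 fold change was 2.49 (SE 0.39, adjusted p = 0.0429 in edgeR), the only one of the 10 genes at an adjusted p under 0.05. Single libraries left out moved it between 2.23 and 2.61, while the adjusted p ranged from 0.0351 without luteolin replicate 2 to 0.214, and it was above 0.05 without any one of the other 5 libraries. In 4 of those 5 fits 0 of all genes tested had an adjusted p under 0.05, and without luteolin replicate 3 it was 0.0585, where 0.993% of all genes were higher. Il18rap, the accessory chain of the same receptor, ran in parallel with 0.801, 3.35 and 3.55 CPM against 12.6, 19.3 and 14.6 CPM, and a log2 fold change of 2.60 (SE 0.57, adjusted p = 0.0807 in edgeR).

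Il18 itself (chromosome 9, 50554827 to 50581840) did not follow its receptor. It had 1.73, 1.30 and 3.78 CPM in the control libraries, against 1.29, 2.96 and 1.17 CPM in the luteolin libraries. The groups overlapped throughout, with the highest level in control replicate 3 and the next in luteolin replicate 2, which also held the most keratinocyte RNA; keratinocytes are a known source of IL-18, and their part in this value was not tested. The log2 fold change was -0.33 (SE 0.60, unadjusted p = 0.604 in edgeR), and 0.25 without control replicate 3. Il18bp, the soluble protein that neutralizes IL-18 and is itself induced by IFN-γ, had 14.6, 13.7 and 14.4 CPM in the control libraries and 19.2, 23.2 and 17.0 CPM in the luteolin libraries, all above the controls, with a log2 fold change of 0.48 (SE 0.20, unadjusted p = 0.0522 and adjusted p = 0.25 in edgeR). Per kilobase Il18bp exceeded Il18 in each library, with 4.70 ± 0.156 against 2.20 ± 1.29 CPM per kb in the control group and 6.54 ± 1.04 against 1.75 ± 0.971 CPM per kb in the luteolin group (SD, n = 3 each). Among the 4 genes of IL-18 processing, 2 were higher at the threshold of the study, beside 11.3% of all genes tested. Casp1, the protease that releases mature IL-18, had 1.39, 2.59 and 7.49 CPM against 16.1, 10.1 and 15.8 CPM, and a log2 fold change of 1.87 (unadjusted p = 0.02 and adjusted p = 0.169 in edgeR). Its call was lost without control replicate 2 (1.65), without luteolin replicate 1 (1.76) and without luteolin replicate 3 (1.75), and it was 2.81 without control replicate 3 and 1.46 without control replicate 1. Gsdmd, the pore through which it leaves the cell, had a log2 fold change of 1.59 (adjusted p = 0.0552 in edgeR). The adaptor Pycard had a log2 fold change of 1.25 (unadjusted p = 0.0848 in edgeR) that came from the 27.2 CPM of luteolin replicate 2, the other luteolin libraries being at 7.43 and 5.23 CPM and the controls at 4.62 to 6.48 CPM; it was 0.20 without luteolin replicate 2, and it was called without luteolin replicate 3 (1.56) and with DESeq2 (1.22). The sensor Nlrp3 had a log2 fold change of 0.49 (unadjusted p = 0.178 in edgeR), and with voom it was 1.08 and called.

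The IFN-γ receptor genes were the most abundant of the 10, and neither passed. Ifngr1 (chromosome 10, 19591949 to 19610229), the ligand-binding chain, had 71.2, 65.5 and 78.8 CPM in the control libraries, against 67.2, 131 and 71.8 CPM in the luteolin libraries. Only luteolin replicate 2 lay outside the range of the controls. The log2 fold change was 0.33 (SE 0.28, unadjusted p = 0.276 in edgeR) and -0.03 without that library. Ifngr2 (chromosome 16, 91547072 to 91565623), the signalling chain, had 78.6 to 85.3 CPM in the control group and 79.4 to 96.6 CPM in the luteolin group, with a log2 fold change of 0.07 (SE 0.14, unadjusted p = 0.649 in edgeR). Its sign turned to -0.19 with offsets for GC content and gene length, a setting that moved the median of all genes to -0.23. Per kilobase Ifngr1 had 25.2 ± 2.34 and Ifngr2 21.9 ± 0.917 CPM per kb in the control group (SD, n = 3), a difference of about the spread of Ifngr1, and the other 8 genes all lay at or below 2.20 CPM per kb there. Ranked by control mean per kilobase, Il18 and Il12rb1 (1.38 ± 0.251 CPM per kb) came next, with overlapping libraries. They were followed by Stat4 (0.349), Il18r1 (0.319), Ifng (0.251), Il12b (0.216) and Il12rb2 (0.165), and by Il12a (0.0545), and each of these 6 overlapped with its neighbour in this order. In the luteolin group Ifng (2.64 ± 0.918 CPM per kb) came next after the receptor genes, ahead of Il12rb1 (2.37 ± 0.556), with overlapping libraries.

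**Figure D2:**
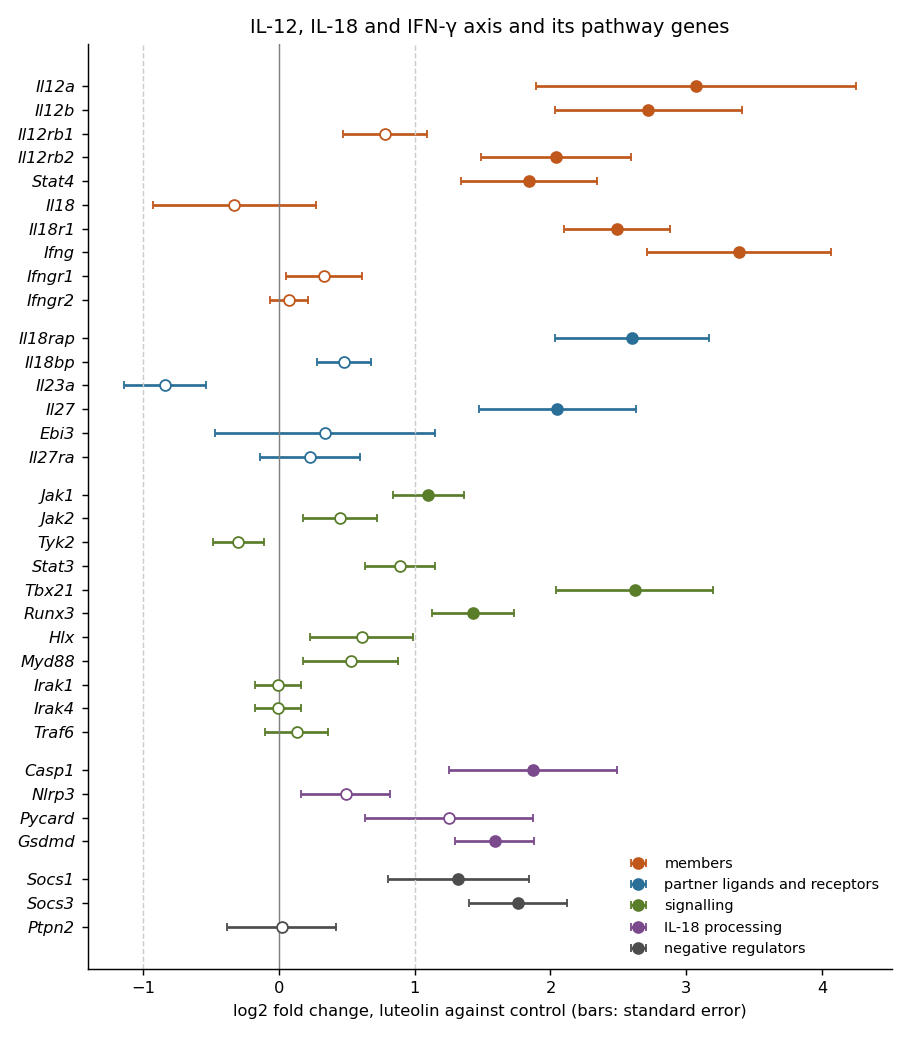
Log2 fold changes of luteolin against control from edgeR are plotted for the 10 genes and 24 related genes, with bars for 1 standard error and dashed lines at a fold change of 2. Filled points passed the threshold of the study, among them Ifng at 3.39 and Il18r1 at 2.49, and open points did not, among them Il18 at -0.33 and Ifngr2 at 0.07.

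Other genes of the pathway were taken from lists written with earlier results of these data known. Of 7 partner ligands and receptors 6 were tested, 2 were higher and 0 lower, beside 11.3% and 1.52% of all genes tested. Besides Il18rap the other was Il27, the p28 subunit of IL-27, with 0.558, 0.494 and 0.791 CPM in the control and 1.52, 4.36 and 1.77 CPM in the luteolin libraries and a log2 fold change of 2.05 (unadjusted p = 0.0094 and adjusted p = 0.125 in edgeR). It was 1.44 without luteolin replicate 2, and 1.54 and not called with luteolin replicate 3 alone. Its partner subunit Ebi3 overlapped between the groups, with 0.605 to 3.28 CPM against 0.816 to 4.31 CPM (log2 fold change 0.34). Il27ra, the receptor chain of IL-27, overlapped as well (log2 fold change 0.23). Il23r, the receptor chain specific to IL-23, was at 0 counts in 5 libraries and at 4 counts in luteolin replicate 2, and was not tested. The log2 fold changes of the 6 tested partner genes had a median of 0.41, against -0.01 for all genes tested.

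Of 11 signalling genes 3 were higher and 0 lower, beside 11.3% and 1.52% of all genes tested. Their median log2 fold change was 0.53, against -0.01 for all genes tested. Tbx21, which encodes T-bet, had 0.272, 0.680 and 0.744 CPM against 2.97, 5.11 and 2.33 CPM, a log2 fold change of 2.62 (SE 0.58, adjusted p = 0.0815 in edgeR). The others were Runx3, a partner of T-bet in cytotoxic lymphocytes, at 1.43 (adjusted p = 0.0747) and Jak1, a kinase bound to IFN-γR1, at 1.10 (adjusted p = 0.0957), both in edgeR. The call of Jak1 depended on its fold change, which was 0.81 without luteolin replicate 2, 0.96 without control replicate 1, 0.91 with voom, 0.91 with the GC content and length offsets and 0.88 with these offsets and the block. It also held in 11 of 18 alternatives. The 8 signalling genes that did not pass, most of them named after their values were seen, were Jak2, Tyk2, Stat3, Hlx, Myd88, Irak1, Irak4 and Traf6. Stat3, a transcription factor downstream of IL-6 and IL-23, had 91.5, 82.5 and 81.3 CPM against 131, 225 and 115 CPM and a log2 fold change of 0.89 (unadjusted p = 0.0125 and adjusted p = 0.139 in edgeR), short of the fold change threshold, which it passed without luteolin replicate 3 (1.01). Of the kinases bound to the IL-12 receptor chains, Tyk2 had a log2 fold change of -0.30 and Jak2 of 0.45.

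Feedback inhibitors were part of the picture. Socs3, an inhibitor of cytokine receptor signalling, had 50.9, 37.5 and 29.2 CPM in the control and 127, 192 and 80.3 CPM in the luteolin libraries, a log2 fold change of 1.76 (SE 0.36, adjusted p = 0.0665 in edgeR). Socs1, which blocks JAK kinases at the IFN-γ receptor, had 6.08, 5.00 and 2.08 CPM against 8.11, 17.3 and 7.48 CPM, a log2 fold change of 1.32 (unadjusted p = 0.0389 and adjusted p = 0.217 in edgeR) that was 0.84 and not called without luteolin replicate 2. The call of Socs1 was also lost without control replicate 2 (1.39), without control replicate 3 (0.98), with voom (0.84) and with the GC content and length offsets (0.95), and it held in 11 of 18 alternatives. The phosphatase gene Ptpn2 ranged over 49.9 to 95.9 CPM in the control and 37.0 to 96.8 CPM in the luteolin group and overlapped.

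Downstream of the receptor, 25 of 26 IFN-γ-induced genes were in the table and tested. At the threshold of the study 20 of the 25 were higher and 0 were lower (11.3% and 1.52% of all genes), and at an adjusted p under 0.05 the counts were 9 and 0 (1.34% and 0.187% of all genes). Ido1, 1 of the 20, with 4, 7 and 29 control counts, passed the filter on low counts only through the luteolin libraries. In 22 of the 25 every luteolin library lay above every control library (15.9% of all genes). The median log2 fold change was 1.47. Without luteolin replicate 2 the count at the threshold of the study was 16 (7.52% of all genes), and with luteolin replicate 3 as the only treated library it was 17 (4.95%). Many of these genes also respond to type I interferon and some mark antigen-presenting cells, so they do not read IFN-γ alone. Nos2, the inducible nitric oxide synthase of activated macrophages, had 5.27, 14.3 and 9.01 CPM in the control libraries, against 150, 81.4 and 134 CPM in the luteolin libraries. All luteolin libraries were far above the controls, and luteolin replicate 2 was the lowest of the treated. The log2 fold change was 3.68 (SE 0.43, adjusted p = 0.0331 in edgeR). Cd274, encoding the checkpoint ligand PD-L1, had a log2 fold change of 1.87 (adjusted p = 0.0292 in edgeR). Of the guanylate-binding proteins, GTPases that restrict microbes within cells, 4 of the 5 on the list rose: Gbp3 by 1.26, Gbp4 by 1.97, Gbp5 by 1.97 and Gbp7 by 1.25 on the log2 scale (adjusted p values of 0.0331 to 0.0393 in edgeR). The other, Gbp2, had a log2 fold change of 0.66 (adjusted p = 0.151 in edgeR). The 5 genes that did not pass, named after their values were seen, were Irf1, Cxcl10, Psmb10, Tap2 and Gbp2. Irf1, a transcription factor gene and early target of IFN-γ, had 158 to 179 CPM in the control and 175 to 230 CPM in the luteolin libraries (log2 fold change 0.27). Cxcl10 overlapped with 23.8 to 34.0 CPM against 22.6 to 41.2 CPM, whereas Cxcl9, a chemokine for the same receptor, was higher in each luteolin library (151 to 165 CPM against 32.4 to 68.9 CPM).

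**Figure D3:**
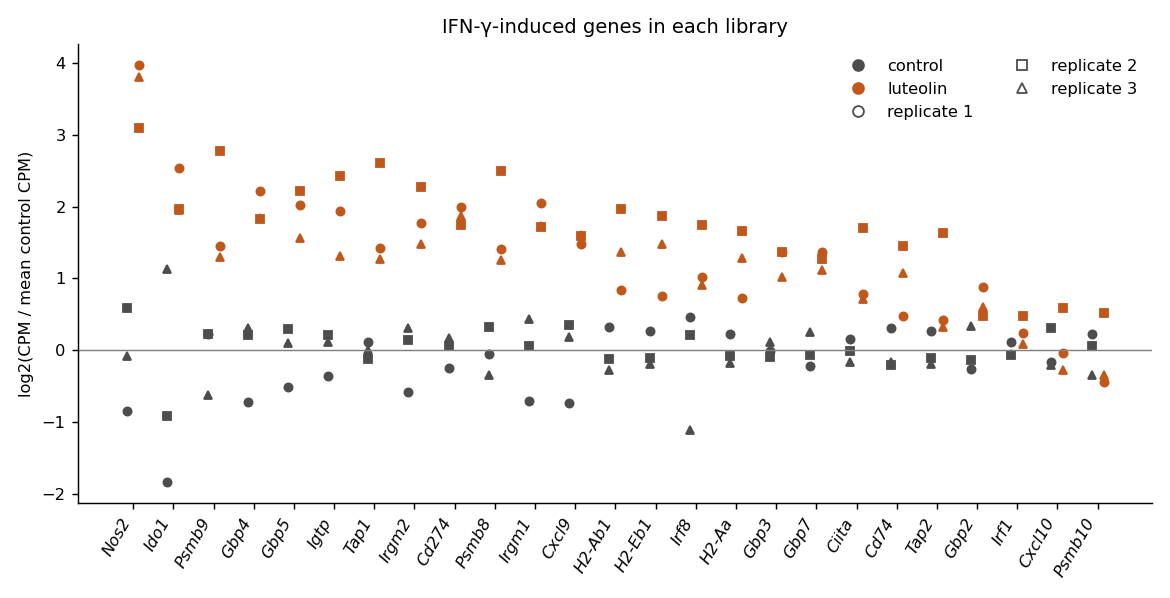
The log2 ratio of each library's CPM to the mean control CPM is plotted for 25 IFN-γ-induced genes, ordered by log2 fold change; grey points are control and orange points luteolin libraries, with a symbol for each replicate. Luteolin points lie above all control points for 22 genes and overlap for Irf1, Cxcl10 and Psmb10.

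The lymphocytes that carry the receptors and make IFN-γ were read from their markers. The 9 T cell markers were all higher at the threshold of the study, where 11.3% of all genes tested were. At an adjusted p under 0.05 the count was 1 of the 9 (1.34% of all genes). This was Cd8a, with a log2 fold change of 2.51 (adjusted p = 0.0331 in edgeR). Cd8a had 1.49 to 2.49 CPM in the control and 9.43 to 11.3 CPM in the luteolin libraries. The 9 markers summed to 15.4 to 17.5 CPM in the control and 52.5 to 100 CPM in the luteolin libraries. The most abundant of them by mean were Lck, Cd4 and Cd3g, with luteolin levels of 8.93 to 20.6, 7.96 to 17.7 and 5.93 to 16.1 CPM. The 6 NK cell markers summed to 2.89 to 7.95 CPM and 20.4 to 42.9 CPM, 4 of them were tested and all 4 were higher. At an adjusted p under 0.05 the count was 0 of the 4. Klrd1 was at 0 in every control library and Klra8 in every library. In each luteolin library the highest of the NK cell markers were Gzma (5.91 to 28 CPM) and Klrk1 (9.04 to 9.59 CPM). Ncr1 lay at 2.01 to 4.6 CPM there and Klrb1c at 1.15 to 2.11 CPM. Whether the Gzma and Klrk1 RNA came from NK cells was not tested, so the sum does not read NK cells alone. The same limit holds for the sums of T and NK cell markers used below. Of the 11 dendritic cell and macrophage markers 6 were higher and 0 lower (11.3% and 1.52% of all genes tested). At an adjusted p under 0.05 only 1 of the 11, Cd68, was higher (adjusted p = 0.0331 in edgeR). Among the 6 was Xcr1, with 4, 20 and 36 control counts, which passed the filter only through the luteolin libraries. Those not called were Lyz2 (log2 fold change 0.23), Itgam (0.22), Clec9a (0.51), Csf1r (0.73) and Adgre1 (0.91). Lyz2, Itgam and Clec9a overlapped between the groups. The summed level of the 11 markers, most of it Lyz2, overlapped as well, at 1330 to 1590 CPM in the control and 1540 to 2280 CPM in the luteolin libraries. The tested T and NK cell markers moved with the axis, and the dendritic cell and macrophage markers did so only in part. The part of these cells in the values of the axis was not tested beyond the ratios that follow.

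Set against the summed counts of the 9 T cell markers of the same library, the members parted. Stat4 had 4.93, 10.5 and 8.56 counts per 100 T cell marker counts in the control libraries, against 8.61, 6.76 and 5.23 in the luteolin libraries, and Il12rb2 had 3.45, 2.47 and 5.37 against 2.83, 3.64 and 4.27. For both the groups overlapped, and the ratio of the group means was 0.859 for Stat4 and 0.951 for Il12rb2 (exact two-sided permutation tests, p = 0.7 and 1.0). Il12rb1 had 26.7 to 42.6 counts per 100 in the control and 12.1 to 15.9 in the luteolin libraries, all of them below the controls (p = 0.1 in the exact permutation test, the smallest that 3 against 3 allow). Il18r1 had 6.61, 10.3 and 10.5 per 100 against 13.4, 11.1 and 12.7, all above the controls (exact permutation p = 0.1). With the NK cell markers added to the sum, the Il18r1 ratios overlapped, at 5.56 to 7.86 against 7.75 to 9.52 (exact permutation p = 0.2). Ifng had 1.02, 3.53 and 1.18 per 100 in the control and 9.07, 2.97 and 4.17 in the luteolin libraries, 2.83 times as much on average, with overlap between control replicate 2 and luteolin replicate 2 (exact permutation p = 0.2). Il18rap and Tbx21 per T cell marker overlapped, with ratios of the means of 1.49 and 1.46 (exact permutation p = 0.2 and 0.3). Per T and NK cell marker Ifng (2.62), Il12rb2 (0.909) and Stat4 (0.808) overlapped as well (exact permutation p = 0.2, 0.8 and 0.5). So did Il18 per count of Il18bp (0.554, exact permutation p = 0.3). The 13 ratios computed in all were chosen after the levels had been seen. With 3 libraries against 3 the exact permutation test cannot go below p = 0.1.

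**Figure D4:**
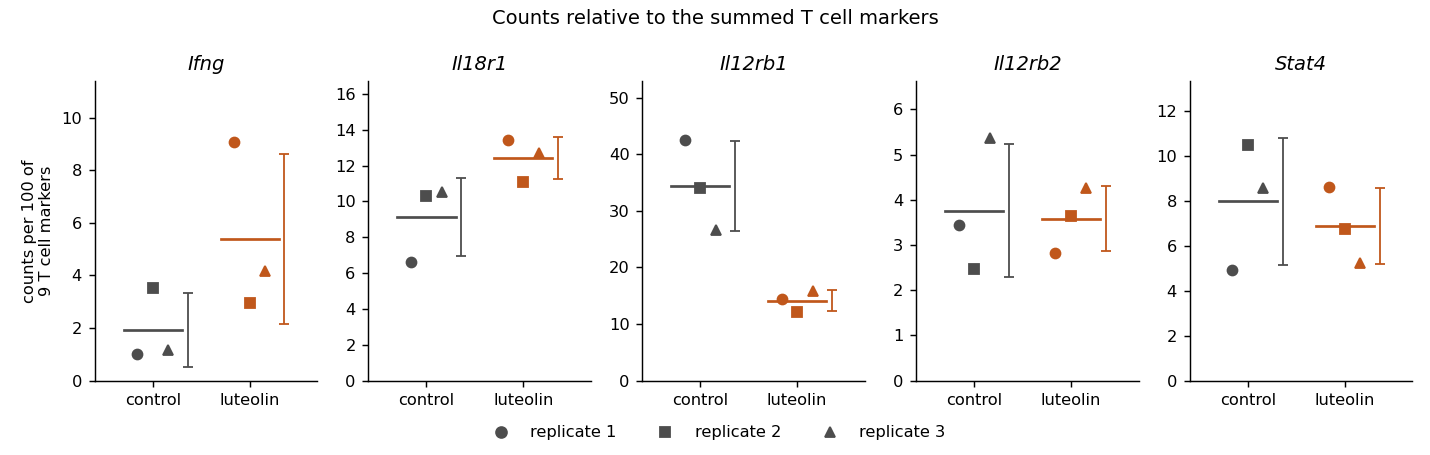
Counts of 5 genes per 100 counts of 9 T cell markers are plotted for each library on linear axes from 0; horizontal lines are group means and bars 1 SD (n = 3 per group). Stat4 and Il12rb2 overlap between the groups, Il12rb1 is lower in each luteolin library (12.1 to 15.9 against 26.7 to 42.6) and Il18r1 is higher in each (11.1 to 13.4 against 6.61 to 10.5).

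The genes whose profile over the 6 libraries was nearest to that of Ifng were sought by Euclidean distance of log2 CPM, each gene centred on its own mean, among 13274 tested genes with a mean of at least 1 CPM. They were Clec4d (distance 0.76), Tpsab1 (0.90), Nos2 (0.98), Acod1 (1.02) and Tnn (1.05), while the median distance was 4.6. Clec4d encodes a C-type lectin of neutrophils and macrophages, Tpsab1 a mast cell tryptase, Acod1 the itaconate-producing enzyme of activated macrophages and Tnn a matrix protein. Their log2 fold changes ran from 2.93 for Tpsab1 to 3.74 for Tnn, and each of the 5 had its lowest luteolin value above its highest control value. A distance over 6 libraries mostly follows the difference between the groups, which all 5 share with Ifng.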

How the data were processed

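The 3 control and 3 luteolin libraries of H22 tumours were grouped by their labels. The authors deposited 1 table of whole numbers per gene symbol without scaling between libraries. Their processing notes name HISAT2, StringTie and DESeq2 with the builds mm39 and rn6, the second of which is a rat build; the annotation and the use of strand are not given in the sources used here. The labels and the paper name different extraction and library kits. Multiples of 4 made up 44.8% of the low values (1 to 40), against 25% for evenly spread values, so the deposited values were treated as estimated counts, of which 1 need not be a read pair. No column was left out (0 of the table).

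Counts were compared in R 4.3.3 with edgeR 4.0.16 (TMM, filterByExpr, quasi-likelihood test, two-sided, no covariates), with Benjamini-Hochberg adjustment over all 14963 genes tested. Standard errors are the log2 fold change over the square root of F. Log2 CPM has a prior count of 2. Alternatives were DESeq2 1.42.0, voom with sample quality weights in limma 3.58.1, RLE and upper-quartile normalization, other filters on low counts, division of all values by 4, spline offsets for GC content (4 degrees of freedom) and exon length (3 degrees of freedom), a replicate block and each library left out. Exon lengths, positions and primer matches are from GENCODE M21 (GRCm38) and promoters from RefSeq (GRCm38.p6), while the table itself holds no positions. The pipeline was tested on simulated data. One gene of the pathway is not reported here. The genes and lists were chosen with earlier results of these data known. Genes named are the 10 genes, the partner, processing and negative regulator lists and the 5 nearest to Ifng. Added to these are the 4 signalling and 6 IFN-γ-induced genes with the smallest p and the 3 most abundant T cell and hepatocyte markers. The keratinocyte, NK cell, dendritic cell and macrophage markers in the text were picked with their values known. So were Cd8a, Hnf4a, Gpc3, Cxcl9, Ido1 and those marked there. Intervals and limits from counts cover counting error only.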

Additional observations from a re-analysis of the deposited data

How the results depend on the processing

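The 6 genes called higher at the threshold of the study numbered 5 or 6 under each setting tried that kept at least 2 libraries per group, with 7.52% to 13.6% of all genes tested called higher. With luteolin replicates 1 and 2 both left out, a setting chosen after seeing the data, the number was 3. The genes at an adjusted p under 0.05 numbered 1 in the reported fit, 5 with DESeq2 (8.67% of all genes tested) and with voom (12.6%), 2 with at least 10 counts in every library, with values divided by 4, with the GC content and length offsets, and with these offsets together with the replicate block, 0 with the replicate block alone and 0 with luteolin replicates 1 and 2 left out. With single libraries left out it was 0 to 1, while 5 to 6 of the 10 genes kept an unadjusted p under 0.05. Without any one control library or luteolin replicate 1, 0 of all genes tested (15272 to 15530) had an adjusted p under 0.05, so the 0 of the 10 genes is no result about them there; without luteolin replicates 2 and 3 in turn 1.82% and 0.993% of all genes were higher. DESeq2 without luteolin replicate 2, also added after seeing the data, gave 4. The replicate block gave Il12a an unadjusted p of 0.0536 in edgeR. The labels do not say whether the replicate numbers pair the libraries. Same-numbered libraries had correlations of their deviations from the group means of -0.20, -0.09 and 0.06 and did not always correlate best with their own number. With 3 libraries per group such correlations cannot decide whether the numbers pair them. The block lowered the count of all genes higher at an adjusted p under 0.05 from 200 to 34.

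Signs turned only for genes not called in the reported fit. With voom the log2 fold change was -0.02 for Ifngr2, -0.52 for Ebi3 and -0.36 for Il27ra. With the GC content and length offsets it was -0.19 for Ifngr2, -0.17 for Ebi3, -0.16 for Il27ra and -0.11 for Ptpn2, and with the replicate block added -0.19, -0.04, -0.19 and -0.15, where the median of all genes was -0.23 and -0.25. With the block alone it was -0.05 for Ptpn2. With luteolin replicates 1 and 2 left out it was -0.04 for Ifngr2 and Ebi3 and -0.08 for Pycard. With DESeq2 without luteolin replicate 2 it was -0.03 for Ifngr1, 0 for Ifngr2, -0.48 for Ebi3 and -0.18 for Il27ra. With single libraries left out the ranges were -0.03 to 0.49 for Ifngr1, 0 to 0.09 for Ifngr2, -0.86 to 0.25 for Il18, -0.48 to 1.03 for Ebi3, -0.18 to 0.48 for Il27ra and -0.23 to 0.37 for Ptpn2. The cause was not tested. Control counts were 0 to 14 for Il12a and 11 to 40 for Ifng, which limits the precision of their fold changes.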
